A study of Mus musculus with 12 samples.

Results

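The response of wild-type mouse hematopoietic stem and progenitor cells to ionizing radiation was described from 6 RNA-seq libraries of 12 in the study. The cells were LSK cells, the bone marrow fraction negative for lineage markers and positive for Sca1 (the product of Ly6a) and for c-Kit, which holds the stem cells and multipotent progenitors. They came from 3 wild-type (WT) animals. After sorting, part of the cells of each animal received 3.5 Gy ex vivo (IR) and part was incubated alike with no irradiation (NIR), and RNA was taken 24 h later. The 6 libraries were chosen by their titles, which call the group control, and by their genotype label, WT. The IR and NIR libraries of an animal were paired by the animal number in the library name, so n counts animals. In the library names animal 2 has the letters WT, whereas the other two have a C that no label explains. The strain, the age and whether animals were pooled are not stated. The other 6 libraries came from 3 preleukemic Cbfb-MYH11 (CM) animals, whose cells carry a leukemic fusion of Cbfb and MYH11, handled in the same way. They were used here only to ask where their response differed.

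Radiation breaks DNA. The damage-sensing kinases then stabilise the transcription factor p53 (gene Trp53), which switches on genes that hold the cell cycle, repair DNA or start cell death, and also genes that turn p53 itself back down. In blood-forming cells this pathway is known to decide whether a damaged stem or progenitor cell pauses or dies. Because p53 is controlled mainly at the protein level, its activity is usually read from its target transcripts.

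The WT libraries held 68.5 to 110.8 M counts over genes. Levels are given as CPM, read counts scaled to a common library size with TMM factors, and differences as log2 fold changes within animals. Of 25078 genes, 14197 passed the filter on low counts and were tested. A gene is called when its adjusted p (edgeR quasi-likelihood test with the animal as a term, Benjamini-Hochberg) is under 0.05. The first principal component of log2 CPM, 49.9% of the variance, set both libraries of animal 1 (-42.9 and -30.2) apart from the others (1.01 to 33.8). The second, 30.8%, set the NIR libraries (-31.7 to -15.7) apart from the IR libraries (17.1 to 27.2). The sort marker genes Ly6a and Kit were well expressed in NIR libraries. So were Cd34, Ptprc and Flt3, which were followed with them but are not part of the sort described above. Their mean levels per exon length, in RPKM, were 180 for Cd34, 82.3 for Ly6a, 64.0 for Ptprc, 40.6 for Kit and 25.3 for Flt3, and none of the 5 was called after irradiation in edgeR (1 upward and 2 downward at an unadjusted p under 0.05), while DESeq2 called 1 in each direction. Kit stood at 150, 257 and 248 CPM in the NIR libraries of animals 1, 2 and 3 and at 174, 251 and 204 CPM in the IR libraries. Ly6a stood at 143, 70.4 and 43.4 CPM without and at 78.6, 67.9 and 45.6 CPM with irradiation, so it was lower in animal 1 and nearly level in the other animals. Cd3e and Ly6g, which define T cells and mature neutrophils, were too low to be tested, but other genes of their lists were detected. The 10 tested mature neutrophil genes summed to 761, 575 and 410 CPM in the NIR libraries of animals 1, 2 and 3. The 7 tested T and NK cell genes summed to 212, 79.4 and 90.5 CPM.

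Irradiation raised 251 genes (1.77% of those tested) and lowered 126 (0.888%). Genes induced by p53 were among those with the smallest p upward, and Ermap and Car1 of red cell precursors, Dntt of lymphoid priming and the fatty acid desaturase gene Scd1 were among those that fell. All 377 called genes moved the same way in the 3 animals. The IR and NIR groups did not overlap for 221 of the 251 genes called higher and for 104 of the 126 called lower. Over all tested genes, whether called or not, the groups did not overlap upward for 7.14% and downward for 6.95%. The median size of a called change was 0.85 (log2) upward and 0.69 downward. At least a 2-fold change was seen in 111 genes called higher and 50 called lower, and at least a 4-fold change in 54 and 22.

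The count of called genes rested on which animals were in the fit. Without animal 1, whose libraries stood apart, 1935 genes were called higher (13.6%) and 1380 lower (9.72%), among them all 251 and all 126. Without animal 2 the counts were 80 and 36, and without animal 3 they were 29 and 8. Animal 1 showed the smallest change of the 3 animals for 128 of the 251 genes called higher. Among the 126 called lower it did so for 36, and animal 2 for 67. Across all tested genes the per-gene changes correlated at 0.69 between animals 2 and 3, at 0.45 between animals 1 and 3 and at 0.40 between animals 1 and 2. These are correlations across genes within pairs of libraries, and genes are not independent replicates.

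**Figure D1:**
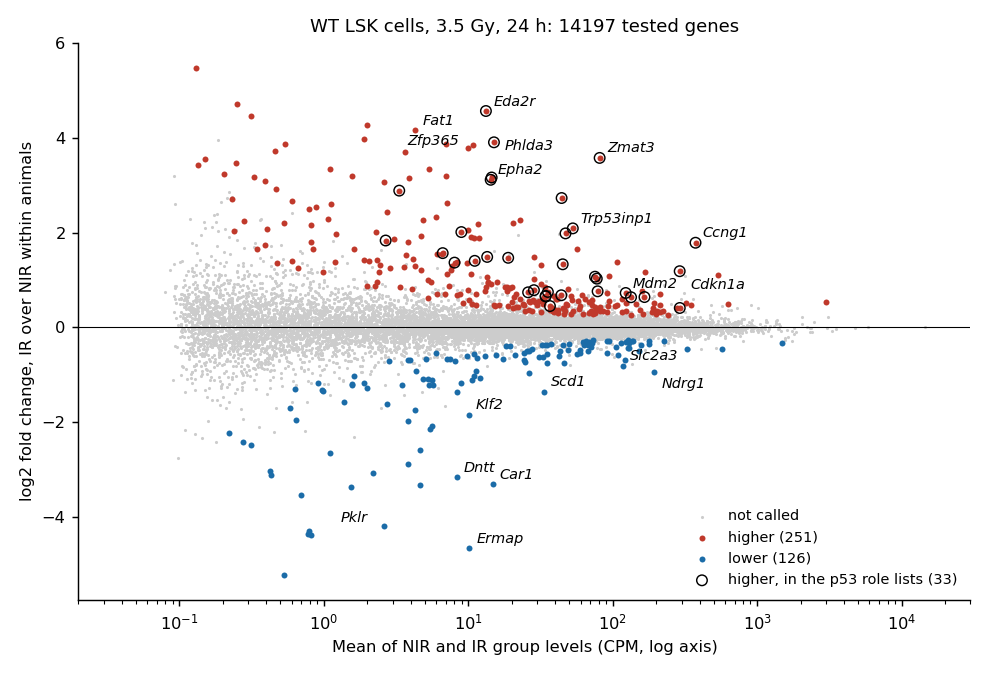
Each point is 1 of the 14197 tested genes, with the mean of the NIR and IR group levels in CPM on a log axis and the log2 fold change of IR over NIR within animals on the vertical axis. Red points are the 251 genes called higher, blue points the 126 called lower, and black rings mark the 33 called genes of the p53 lists, all of which lie above 0.

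Known p53 target genes were followed in 6 lists by role, with 85 tested members. Of these, 33 were called higher and 0 lower, against 1.77% and 0.888% of all tested genes. For all 33 the IR and NIR groups did not overlap, against 7.14% of all tested genes that did not overlap upward. The NIR to IR change was upward in all 3 animals for 55 of the 85, against 19% of all tested genes, and downward in all 3 for 11, against 22.9%. Trp53 itself stood at 196, 196 and 211 CPM without and at 207, 202 and 206 CPM with irradiation, which is a log2 difference of 0.03 ± 0.04 (SE, adjusted p = 0.768). The levels of Trp53 thus overlapped between the groups. Without animal 1, 53 of the 85 were called higher and 3 lower (Ddb2, Ddit4 and Prkab2), against 13.6% and 9.72% of all tested genes. The counts higher were 27 without animal 2 and 15 without animal 3, against 80 and 29 of all 14197 tested genes.

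The feedback list holds genes that act on p53 itself or close to it, and 5 of its 9 tested members were called higher (background 1.77%). Zmat3, an RNA-binding zinc finger protein (chromosome 3, 32334794 to 32365665, minus strand, mm10), had the smallest p of all genes. It stood at 12.5, 11.02 and 14.2 CPM in the NIR libraries of animals 1, 2 and 3 and at 139, 150 and 160 CPM in their IR libraries. The lowest irradiated library was far above the highest unirradiated one, and the rise on the log2 scale was 3.58 ± 0.08 (SE, adjusted p = 0.000345). Ccng1, cyclin G1, which brings a phosphatase to MDM2, rose from 172, 156 and 177 CPM to 534, 591 and 619 CPM (1.79 ± 0.07, adjusted p = 0.000761; chromosome 11, 40748552 to 40755286, minus strand). Mdm2, the ubiquitin ligase that marks p53 for destruction, went from 92.0, 95.3 and 90.6 CPM to 143, 156 and 162 CPM (0.73 ± 0.05, adjusted p = 0.00585). Without animal 3, Mdm2 and Rps27l missed the threshold (adjusted p = 0.0766 and 0.0707), and Rps27l also without the animal term (0.356) and in the fit of all 12 libraries (0.0708). Its partner Mdm4 rose less, by 0.41 ± 0.05, and Rps27l, a ribosomal protein paralog, by 0.64 ± 0.05. Mdm4 missed the threshold without animal 2 (adjusted p = 0.0879), without animal 3 (0.267) and without the animal term (0.325). Ppm1d, the phosphatase that removes damage marks from p53 and its kinases, was upward in each animal (0.13, 0.13 and 0.10 on the log2 scale) and was not called (adjusted p = 0.281). The ubiquitin ligase genes Cop1 and Rchy1 stood at -0.06 and 0.02, also not called. Within the list, therefore, the size of the change ran over a wide range, and the NIR and IR ranges of Ppm1d, Cop1, Wrap53 and Rchy1 overlapped.

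In the arrest and growth list 4 of 14 tested members were called higher (background 1.77%). Cdkn1a, which encodes the cyclin-dependent kinase inhibitor p21, stood at 247, 147 and 149 CPM without and at 457, 377 and 371 CPM with irradiation (1.19 ± 0.10, adjusted p = 0.00785). Animal 1 had the highest level in both groups and the smallest rise, 0.89 against 1.36 and 1.31 in animals 2 and 3. Phlda3, which keeps AKT from the membrane, rose from 2.87, 1.17 and 1.84 CPM to 32.1, 26.2 and 26.3 CPM (3.91 ± 0.20, adjusted p = 0.00159). Gtse1, a microtubule protein that carries p53 out of the nucleus in late cell cycle phases, rose by 1.07 ± 0.05 and Btg2, an antiproliferative factor, by 0.74 ± 0.07. Gdf15, a secreted stress factor, was upward in all 3 animals by 0.72, 1.32 and 0.99 and just missed the threshold (adjusted p = 0.0546). Plk2, a polo-like kinase, was upward by 2.08 and 2.18 in animals 2 and 3 but by 0.36 in animal 1 (adjusted p = 0.123). Gadd45a, which is known to be induced by many kinds of DNA damage, was downward in each animal (-0.11, -0.28 and -0.15) and was not called (adjusted p = 0.277). The call of Cdkn1a was lost without animal 3 (adjusted p = 0.112), without the animal term (0.128) and in the fit of all 12 libraries with it (0.0574). Btg2 was lost without animal 2 (0.077), without animal 3 (0.161) and without the animal term (0.109).

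Cell death was the list with the most called members, 9 of 18, all higher (background 1.77%). Eda2r, a death-domain receptor of the tumor necrosis factor receptor family (chromosome X, 97333841 to 97377209, minus strand), changed most. It stood at 1.35, 0.798 and 1.11 CPM without and at 23.0, 25.9 and 27.4 CPM with irradiation, a rise of 4.57 ± 0.19 on the log2 scale (adjusted p = 0.00079). Trp53inp1, a nuclear stress protein that promotes arrest and death, rose from 20.6, 20.5 and 19.2 CPM to 81.5, 88.7 and 87.3 CPM (2.09 ± 0.06, adjusted p = 0.000355). The spread of the 3 animals was small beside either rise. Tnfrsf10b, the mouse TRAIL receptor, rose by 1.47 ± 0.08.

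Of the BCL2 family genes that open the mitochondrial route, Bbc3 (PUMA) went from 5.91, 4.09 and 3.66 CPM to 11.9, 11.6 and 11.1 CPM (1.37 ± 0.14, adjusted p = 0.0129). Bax went from 74.4, 39.1 and 42.7 CPM to 125, 92.1 and 92.7 CPM (1.03 ± 0.10, adjusted p = 0.0109). The 2 genes had their smallest rise in animal 1, where Bax was already higher without irradiation. Pmaip1 (NOXA) was upward by 0.39, 0.24 and 0.15 and was not called (adjusted p = 0.0989). Fas, the death receptor, was upward by 0.83 and 1.25 in animals 2 and 3 and by 0.08 in animal 1 (adjusted p = 0.204). Of the other death genes, Aen (0.76 ± 0.05), Pidd1 (0.75 ± 0.09), Dapk1 (0.67 ± 0.05) and Ei24 (0.64 ± 0.04) were called, while Apaf1 (0.20 ± 0.05) and Bid (0.03 ± 0.06) were not. None of the 7 anti-apoptotic members of the BCL2 family was called in edgeR (2 at an unadjusted p under 0.05, both upward), and DESeq2 called 1 higher. Without animal 3, 3 of the 18 death genes were called higher (29 of all 14197 tested genes), namely Eda2r, Trp53inp1 and Tnfrsf10b. Aen, Pidd1, Dapk1, Ei24, Bax (adjusted p = 0.14) and Bbc3 (0.148) then missed the threshold. Bbc3 did so also without animal 2 (0.0656), and Bax without the animal term (0.312) and in the fit of all 12 libraries (0.0923).

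**Figure D2:**
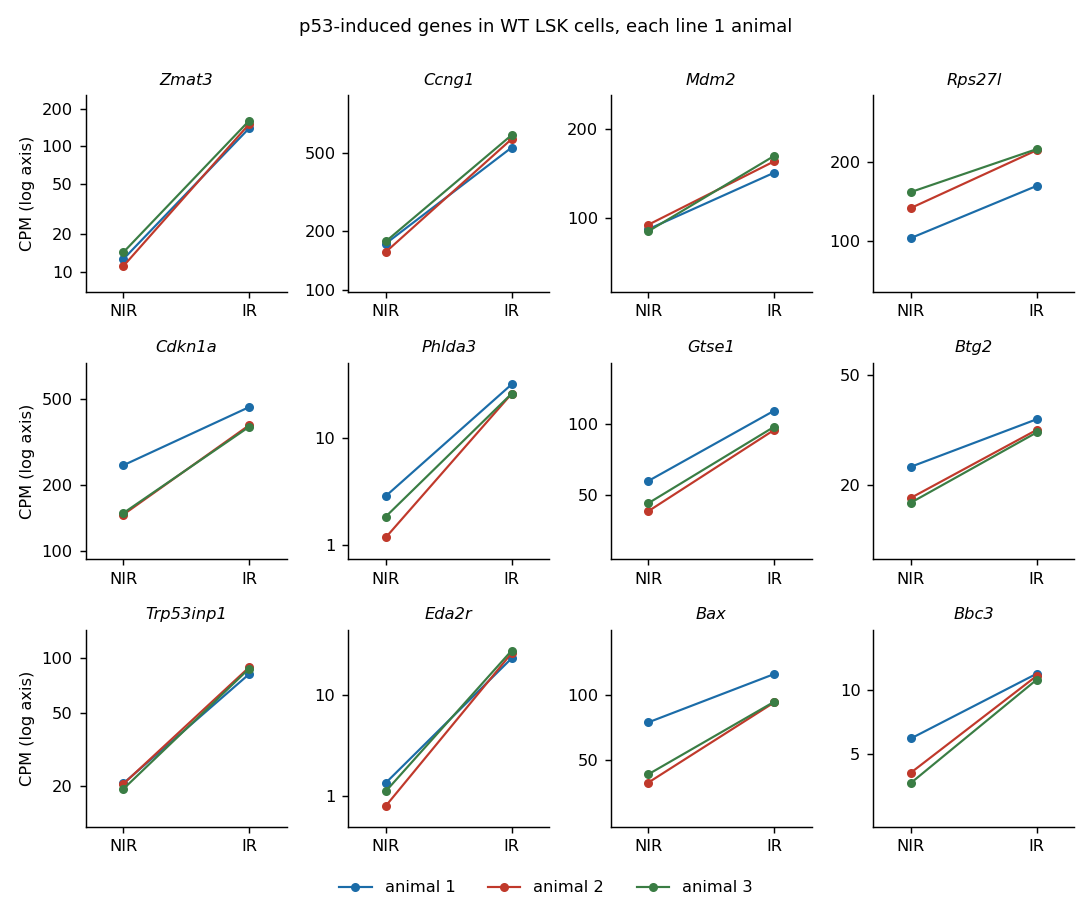
CPM (log axis, own range per panel) of 12 p53-induced genes in the NIR and IR library of each WT animal, with 1 line per animal. Every line rises, and lines are nearly parallel for genes such as Zmat3 and Trp53inp1, while for Cdkn1a, Bax and Bbc3 animal 1 starts highest.

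In the DNA repair list 3 of 7 were called higher (background 1.77%). Mgmt, which removes alkyl groups from guanine, rose from 4.27, 3.20 and 3.22 CPM to 16.8, 13.1 and 13.2 CPM (2.01 ± 0.08, adjusted p = 0.00079), and the changes in the 3 animals were close to one another, at 1.97, 2.02 and 2.03. Ercc5, a nuclease of nucleotide excision repair, rose by 0.79 ± 0.07 and Polk, a translesion polymerase, by 0.66 ± 0.06. Without animal 2, and likewise without animal 3, only 1 of the 7 was called, Mgmt, so Ercc5 and Polk missed the threshold. The excision repair damage sensor genes Ddb2 and Xpc stood at -0.30 ± 0.08 and 0.15 ± 0.05 and were not called. In the metabolism and redox list 4 of 18 were called higher (background 1.77%). Ak1, adenylate kinase, rose from 3.23, 2.47 and 3.08 CPM to 28.1, 24.9 and 25.4 CPM (3.17 ± 0.09, adjusted p = 0.000355). Cpt1c, a carnitine palmitoyltransferase homolog, rose by 2.89 ± 0.15, Sesn2, a sensor that restrains mTORC1, by 0.68 ± 0.05, and Aldh4a1, of proline breakdown, by 0.45 ± 0.05. Without animal 3, 2 of the 18 were called, Ak1 and Cpt1c, so Sesn2 and Aldh4a1 missed the threshold. Tigar, which lowers glycolytic flux, was upward in each animal (0.26, 0.34 and 0.18) and was not called (adjusted p = 0.0892). Sesn1 (-0.05 ± 0.06), Gls2 (-0.28 ± 0.12) and Fdxr (0.10 ± 0.08) were not called either.

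Among p53 targets with surface, signalling and other roles 8 of 19 were called higher (background 1.77%). Epha2, an ephrin receptor kinase (chromosome 4, 141301221 to 141329384, plus strand), rose from 3.52, 2.50 and 2.90 CPM to 27.8, 25.0 and 24.1 CPM (3.12 ± 0.10, adjusted p = 0.000368). Sulf2, a heparan sulfate endosulfatase, rose by 2.73 ± 0.15, Psrc1, a spindle protein, by 1.99 ± 0.07, Ephx1, an epoxide hydrolase, by 1.84 ± 0.18, Dcxr, a sugar reductase, by 1.41 ± 0.09, and the thiamine transporter gene Slc19a2 by 1.33 ± 0.05. The long noncoding RNA genes Trp53cor1 (lincRNA-p21) and Pvt1 rose by 1.57 ± 0.15 and 1.49 ± 0.07. Trp53cor1 lies upstream of Cdkn1a on chromosome 17. Without animal 3, 5 of the 19 were called, namely Epha2, Sulf2, Psrc1, Slc19a2 and Pvt1, so Ephx1, Dcxr and Trp53cor1 missed the threshold. Notch1 was upward by 0.82, 0.34 and 0.23 and was not called (adjusted p = 0.128).

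**Figure D3:**
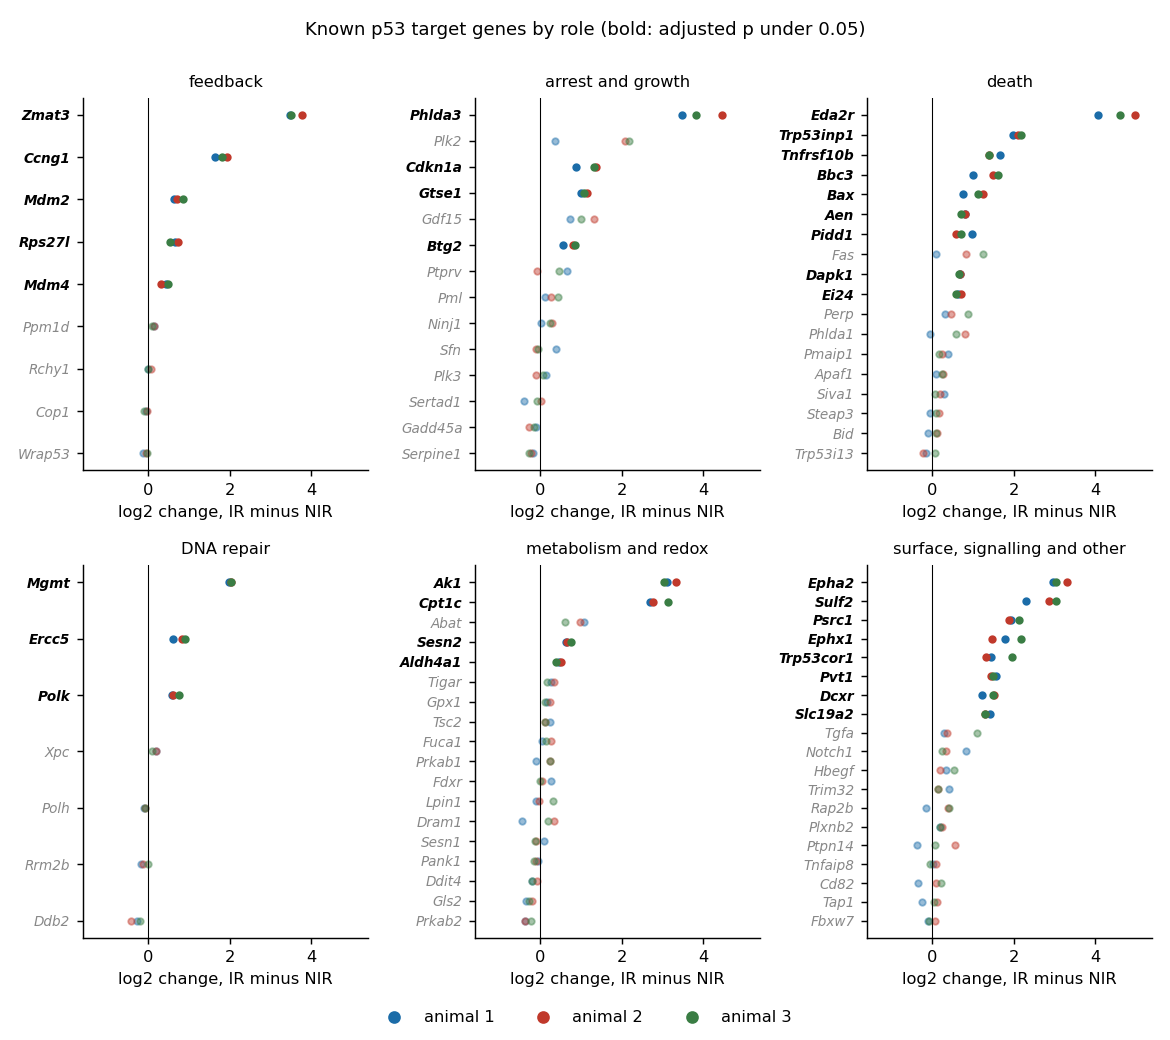
Log2 change of IR over NIR (CPM with a prior count of 2) in each of the 3 WT animals for the 85 tested p53 target genes, in 6 panels by role and sorted by fold change, with called genes in bold. The 33 called genes all lie to the right of 0 in each animal, from Mdm4 and Aldh4a1 near 0.4 up to Eda2r at 4.07 to 4.98.

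The DNA just before the start of these genes was searched for p53 sites, to show what the responding genes share beside their change. Promoter windows of 250 bases before to 50 after the RefSeq start (GRCm38.p6, the same chromosome sequences as mm10) were matched by symbol for 11148 tested genes. A full site was taken as 2 neighbouring p53 consensus half-sites, 20 bases in all, with the C and G of each half-site core exact and at most 2 mismatches elsewhere. The consensus reads the same on both strands. Such a site was found in 7 of the 203 genes called higher that had a window (3.45%), in 0 of the 93 called lower, and in 49 of all 11148 (0.44%). Of the 50 genes called higher with the smallest p, 39 had a window and 5 held a site (12.8%). A single exact half-site was found in 29 of the 203 (14.3%), in 9 of the 93 (9.68%) and in 919 of all 11148 (8.24%). A core pair, CATGNNNNNNCATG, has 2 exact cores and leaves the other bases free, and it can lie within a full site. It was found in 1 of the 203 (0.493%), in 2 of the 93 (2.15%) and in 47 of all (0.422%). The half-site and the pair were planned, while the full site was defined after the data had been seen. The 7 genes with a full site were Zfp365, Ccng1, Gtse1, Rps27l, Cdkn1a, Cd80 and the predicted gene Gm15987, the last 2 named only for this count. A match is a description of the letters in this window, since many known p53 sites lie farther away or inside the first intron.

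For 3 of them the 250 bases before the start are shown, because they belong to a feedback gene, a ribosomal paralog and p21 and each hold a full site, given in capitals. The Ccng1 window is chr11:40755287-40755536, minus strand, with the first base of the site at position -195 from the start and 1 mismatch. The Rps27l window is chr9:66946163-66946412, plus strand, with the site at -117 and 1 mismatch. The Cdkn1a window is chr17:29090729-29090978, plus strand, with the site at -51 and 1 mismatch. In Gtse1 the site begins at -1 and runs over the start (chromosome 15, plus strand), so only the 20 bases of the site are given.
Ccng1: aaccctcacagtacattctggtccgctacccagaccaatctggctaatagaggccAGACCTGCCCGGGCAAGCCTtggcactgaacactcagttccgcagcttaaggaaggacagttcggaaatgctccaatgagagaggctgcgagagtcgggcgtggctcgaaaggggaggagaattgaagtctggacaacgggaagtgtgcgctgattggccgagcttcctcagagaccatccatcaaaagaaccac
Rps27l: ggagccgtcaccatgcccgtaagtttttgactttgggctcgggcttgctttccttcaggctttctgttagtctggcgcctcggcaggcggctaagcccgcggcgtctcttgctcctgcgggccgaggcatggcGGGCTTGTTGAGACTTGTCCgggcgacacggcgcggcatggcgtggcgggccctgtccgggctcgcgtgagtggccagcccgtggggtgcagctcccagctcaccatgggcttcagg
Cdkn1a: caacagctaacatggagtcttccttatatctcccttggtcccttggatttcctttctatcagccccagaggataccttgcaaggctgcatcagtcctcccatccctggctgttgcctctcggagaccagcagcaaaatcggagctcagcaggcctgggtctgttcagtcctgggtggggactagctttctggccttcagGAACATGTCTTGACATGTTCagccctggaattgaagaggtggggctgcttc
Gtse1 site: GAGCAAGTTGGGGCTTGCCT

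The 4 genes differed in level and in the size of their rise. Per exon length, Rps27l was the highest of them without irradiation, at 182 ± 35.1 RPKM (SD, n = 3), and Gtse1 the lowest at a mean of 16.9. Ccng1, at 46.4 ± 2.66 RPKM without and 162 ± 11.9 RPKM with irradiation, had the largest log2 fold change of the 4. A full site in the window was therefore found both beside a change of 0.64 (Rps27l) and beside one of 1.79. The other genes with a full site, Zfp365, Cd80 and Gm15987, rose by 3.86, 2.18 and 1.21. Eda2r, Epha2 and Phlda3, which rose more than Rps27l or Ccng1, held no full site in their windows.

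Outside the p53 lists, and among called genes that reached 1 CPM in the irradiated group, several of the largest rises were in genes that stood under 1 CPM before. Fat1, an atypical cadherin, rose from 0.411, 0.476 and 0.464 CPM to 7.499, 8.17 and 8.75 CPM (4.17 ± 0.13, adjusted p = 0.000355). Ddit4l, an inhibitor of mTORC1 signalling, rose by 4.28 ± 0.33 and the transcription factor gene Zfp750 by 3.97 ± 0.28. Zfp365, a zinc finger gene linked to genome stability, rose from 1.66, 1.15 and 1.37 CPM to 19.4, 18.6 and 22.0 CPM (3.86 ± 0.13, adjusted p = 0.000424). Inka2, an inhibitor of the kinase PAK4, rose by 3.78 ± 0.30, and its call was lost without animal 3 (adjusted p = 0.0914). For each of these the 3 irradiated libraries lay above every unirradiated one.

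Several of the leading genes encode proteins of the cell surface or the matrix. Tnfsf4, the OX40 ligand that costimulates T cells, rose from 1.33, 0.620 and 0.796 CPM to 10.5, 14.4 and 14.6 CPM (3.87 ± 0.31, adjusted p = 0.0069). Tnfrsf11b (osteoprotegerin, a decoy receptor for RANKL) rose by 3.88 ± 0.32 from 0.103 CPM or less, Mmp2, a gelatinase, by 3.35 ± 0.13, and Hmcn2, a hemicentin, by 3.70 ± 0.31. Cd209a, a mouse homolog of the lectin DC-SIGN, rose from 5.56, 9.32 and 9.20 CPM to 32.1, 40.2 and 41.7 CPM (2.27 ± 0.10, adjusted p = 0.000924; chromosome 8, 3743395 to 3748984). Its neighbour Cd209e rose from 2.49, 1.09 and 2.60 CPM to 12.6, 8.49 and 15.6 CPM (2.62 ± 0.14). These genes are close paralogs in 1 cluster, so reads could have been shared between them and their separate values are uncertain. Without animal 3, Tnfsf4 (adjusted p = 0.105) and Tnfrsf11b (0.114) missed the threshold, and Hmcn2 did so without the animal term (0.0546). Mmp2 and Cd209a passed under every setting run per gene, and Cd209e did not.

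Inflammatory genes changed less. Of 24 tested genes of the NF-kB list, 3 were called higher (background 1.77%). The count was 0 without the animal term, 0 without animal 2 and 0 without animal 3. Without animal 1 it was 15 higher (background 13.6%) and 1 lower (background 9.72%). Icam1, an adhesion molecule, rose by 0.60 ± 0.05, Rel, an NF-kB subunit, by 0.43 ± 0.07, and Cd83 by 1.89 ± 0.26. Cd83 stood at 9.71, 2.28 and 4.56 CPM without and at 20.9, 10.9 and 23.3 CPM with irradiation. In this list 10 of 24 were upward in all 3 animals (background 19%). The median was 0.30 and 0.32 in animals 2 and 3 and -0.14 in animal 1. None of the 24 interferon response genes was called in edgeR (2 downward at an unadjusted p under 0.05), and DESeq2 called 1 lower. Without animal 1, edgeR called 7 of these 24 higher (background 13.6%) and 1 lower (background 9.72%). Their summed level in the NIR library of animal 1, 1734 CPM, was far above that of animals 2 and 3 (482 and 398 CPM), and their median change was -0.99 in animal 1 against 0.09 and 0.15.

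Several genes of red cell precursors fell by a large amount. Ermap, an erythroid membrane protein gene (chromosome 4, 119175457 to 119189995, minus strand), had the smallest p of the genes that fell. It stood at 42.7, 4.43 and 11.6 CPM without and at 1.90, 0.162 and 0.396 CPM with irradiation, a log2 difference of -4.66 ± 0.12 (SE, adjusted p = 0.000355). Animals differed widely in level, with animal 1 highest in both groups, while the changes within animals were -4.48, -4.59 and -4.80. Car1, carbonic anhydrase of early erythroid cells, went from 56.6, 6.81 and 16.9 CPM to 5.58, 0.595 and 1.93 CPM (-3.31 ± 0.10, adjusted p = 0.000355). Pklr, the pyruvate kinase of red cells and liver, went from 10.6, 1.02 and 3.17 CPM to 0.648, 0.0541 and 0.144 CPM (-4.19 ± 0.18, adjusted p = 0.000904). Rhd and Rhag, of the Rh complex of the red cell membrane, fell by 4.39 ± 0.32 and 3.37 ± 0.52 on the log2 scale. The largest fall of any called gene was in Slc25a21, a mitochondrial carrier (-5.22 ± 0.43), and other large falls were in Cldn13 (-4.35 ± 0.39), the amino acid transporter gene Slc38a5 (-4.30 ± 0.29), Tspo2 (-3.54 ± 0.40) and the sodium pump subunit gene Atp1b2 (-3.33 ± 0.28). Slc25a21 stood at 0.0240, 0.0108 and 0.0360 CPM after irradiation, a few reads per library, so the size of its fall is imprecise. Without animal 3, Slc25a21 (adjusted p = 0.074), Rhd (0.0565), Cldn13 (0.12), Tspo2 (0.0707), Rhag (0.328) and Atp1b2 (0.112) missed the threshold.

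The rest of the erythroid list did not follow Ermap and Car1 alike. Of 11 tested members 3 were called lower (Ermap, Car1 and Rhd), against 0.888% of all tested genes. The count was 0 without the animal term, 7 without animal 1 (background 9.72%) and 2 without animal 3. Downward in all 3 animals were 9 of the 11, against 22.9% of all tested genes. The median was -2.40, -0.22 and -1.08 in animals 1, 2 and 3. Klf1, the erythroid master regulator, went from 12.5, 1.73 and 2.65 CPM to 2.56, 1.2005 and 1.09 CPM (adjusted p = 0.11). Gata1, which acts earlier and also in megakaryocytes and mast cells, went from 28.3 to 13.7 CPM in animal 1 and stayed at 8.04 to 8.09 and 9.26 to 9.57 CPM in animals 2 and 3. Epor, the erythropoietin receptor, was downward by 1.61 in animal 1 on the log2 scale, from 5.23 to 1.70 CPM, and its changes in the other animals were -0.31 and -0.38. Tfrc, the transferrin receptor, changed little (-0.18 ± 0.06, adjusted p = 0.184). The adult globin genes Hba-a1, Hba-a2, Hbb-bs and Hbb-bt are listed at 0 in every WT library. The erythroid list summed to 1097, 723 and 935 CPM without and 759, 673 and 784 CPM with irradiation, most of it Tfrc. Fewer cells of a type and less RNA per cell cannot be told apart in these bulk libraries. Without the animal term Ermap, Car1 and Pklr were not called (adjusted p = 0.278, 0.414 and 0.322).

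Of 12 tested genes of the lymphoid list, 2 were called lower in edgeR (background 0.888%). Downward in all 3 animals were 5 (background 22.9%), and 5 had a positive log2 fold change. Dntt, terminal transferase, a mark of lymphoid-primed progenitors, stood at 3.05, 19.2 and 23.5 CPM without and at 0.996, 1.83 and 1.39 CPM with irradiation (-3.16 ± 0.46, adjusted p = 0.0344). The groups did not overlap, and animal 1 began lowest and changed least. Ccr9, a chemokine receptor of cells bound for the thymus, went from 2.67, 1.54 and 1.47 CPM to 0.312, 0.162 and 0.423 CPM (-2.64 ± 0.33, adjusted p = 0.0229). Dntt and Ccr9 were the called members of the lymphoid list. Without animal 1, 7 of its 12 genes were called lower (background 9.72%) and 2 higher (background 13.6%). In the macrophage and dendritic list, where 11 of 13 genes had a positive log2 fold change, Siglech, a receptor of plasmacytoid dendritic cells, fell from 6.82, 15.002 and 15.05 CPM to 4.21, 4.77 and 4.65 CPM (-1.36 ± 0.21). Irf8, a transcription factor of dendritic and monocyte progenitors, fell by 0.55 ± 0.09. Flt3, the receptor of lymphoid-primed progenitors, stood at -0.01 in animal 1 and at -0.76 and -0.59 in the others and was not called (adjusted p = 0.187). Dntt, Ccr9, Siglech and Irf8 all missed the threshold without animal 2 (adjusted p = 0.143, 0.0857, 0.173 and 0.151) and without animal 3 (0.236, 0.055, 0.328 and 0.223).

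Genes of early granulocyte and monocyte progenitors were slightly higher. In the myeloid progenitor list 3 of 17 were called higher (background 1.77%), 1 lower (Irf8, background 0.888%), and 10 were upward in all 3 animals (background 19%). Mpo, myeloperoxidase of the primary granules, rose from 2670.3, 2200.2 and 2385 CPM to 3999, 3362 and 3246 CPM (0.55 ± 0.07, adjusted p = 0.0244). Ms4a3, a marker of granulocyte and monocyte progenitors, rose by 0.47 ± 0.06, and Gfi1, a repressor that favours granulocytes, by 0.35 ± 0.05. Their 3 IR libraries all exceeded their 3 NIR libraries. All 3 missed the threshold without animal 2 (adjusted p 0.147 to 0.263) and without animal 3 (0.222 to 0.296). Without animal 1, 15 of the 17 were called higher (background 13.6%) and 1 lower (background 9.72%). None of 20 stem cell identity genes was called in edgeR or DESeq2, with 2 upward and 1 downward at an unadjusted p under 0.05 in edgeR. Procr, the endothelial protein C receptor that marks stem cells, came nearest, from 1.92, 1.74 and 1.54 CPM to 2.9996, 2.54 and 2.54 CPM (0.64 ± 0.13, adjusted p = 0.079).

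**Figure D4:**
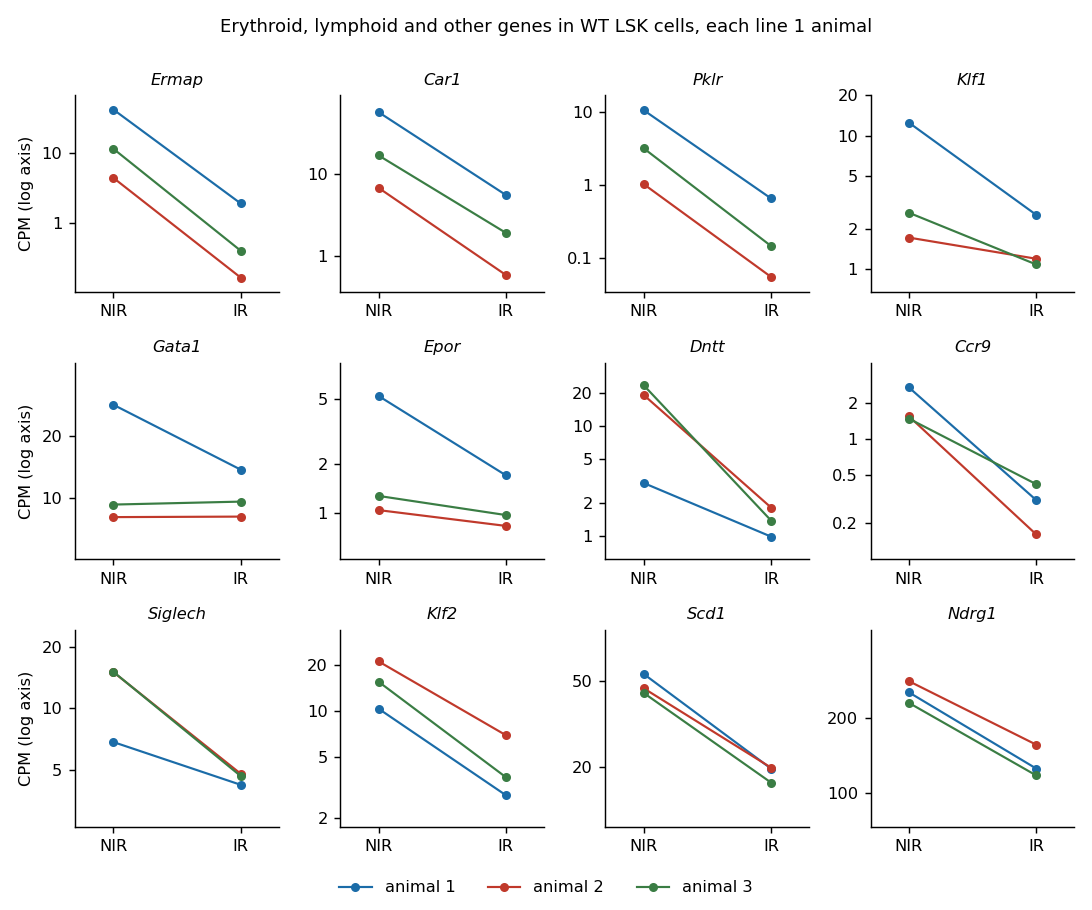
CPM (log axis, own range per panel) of 12 genes of red cell precursors, lymphoid and dendritic cells and metabolism in the NIR and IR library of each WT animal, with 1 line per animal. Ermap, Car1 and Pklr fall in parallel from different levels, whereas Gata1 falls only in animal 1 and Klf1 and Epor fall most there.

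The other genes with the smallest p among those that fell serve metabolism and signalling. Scd1, the stearoyl-CoA desaturase that makes oleate, went from 54.1, 46.4 and 44.2 CPM to 19.6, 19.8 and 16.9 CPM (-1.36 ± 0.07, adjusted p = 0.00127). Ndrg1, a stress- and differentiation-linked gene, went from 252, 280 and 229 CPM to 125, 156 and 118 CPM (-0.94 ± 0.05, adjusted p = 0.00182). Slc2a3, a glucose transporter gene, went from 114, 188 and 147 CPM to 70.8, 107 and 77.8 CPM (-0.81 ± 0.05, adjusted p = 0.00416). Scd1 and Ndrg1 fell in every animal with no overlap of the groups, and Slc2a3 likewise, though Slc2a3 missed the threshold without animal 3 (0.0692) and without the animal term (0.324). Ndrg1 missed it in the fit of all 12 libraries (0.08). Klf2, a transcription factor of quiescence and trafficking, went from 10.3, 21.0 and 15.5 CPM to 2.82, 6.94 and 3.70 CPM (-1.84 ± 0.11, adjusted p = 0.00312). Of 20 immediate early genes edgeR called Klf2 alone, and DESeq2 called 1 higher and 3 lower (531 and 356 of all 14197 tested genes). Without animal 1, edgeR called 6 higher (background 13.6%) and 4 lower (background 9.72%). Nos2, inducible nitric oxide synthase, went from 8.61, 11.3 and 7.04 CPM to 1.96, 3.14 and 1.42 CPM (-2.09 ± 0.13, adjusted p = 0.00294). Klf2 and Nos2 missed the threshold without the animal term (adjusted p = 0.194 and 0.07), and Nos2 also in the fit of all 12 libraries (0.0566). In the integrated stress list Trib3 (-0.75 ± 0.08) and Asns (-0.29 ± 0.04) fell and Sesn2 rose, while Atf4, the factor that drives both, was downward by nearly the same amount in each animal (-0.23, -0.22 and -0.23) and missed the threshold (adjusted p = 0.0703). Trib3 and Asns were lost without animal 2 (0.0559 and 0.263), without animal 3 (0.0868 and 0.343) and without the animal term (0.314 and 0.378).

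Proliferation genes moved little in size. None of 39 mitosis genes was called in edgeR, with 20 downward at an unadjusted p under 0.05, and DESeq2 called 9 lower and limma-voom 0. Over all 14197 tested genes 1266 were downward at an unadjusted p under 0.05 in edgeR, and DESeq2 called 356 lower. These counts over all genes also serve for the replication and recombination lists below. Of the 39, 27 were downward in all 3 animals and 2 upward, against backgrounds of 22.9% and 19%. Their median change was -0.10, -0.10 and -0.13 in animals 1, 2 and 3. Anln (anillin, of the cleavage furrow), the member with the smallest p, stood at 148, 171 and 166 CPM without and at 123, 149 and 142 CPM with irradiation (-0.23 ± 0.04, adjusted p = 0.0554), and Ccna2, cyclin A2, at 323, 374 and 403 CPM and 282, 338 and 340 CPM (-0.20 ± 0.05, adjusted p = 0.102). Of 43 DNA replication genes 23 were downward in all 3 animals, and of 33 homologous recombination and Fanconi anemia genes 21, with 0 called in either list by edgeR (13 and 8 downward at an unadjusted p under 0.05) and 3 and 1 called lower by DESeq2. Without animal 1, 18 of the 39 mitosis genes were called lower (background 9.72%). Of 12 G1 cyclin and kinase genes, Ccnd1 (cyclin D1) rose from 43.2, 25.7 and 29.1 CPM to 64.8, 43.0 and 39.9 CPM (0.60 ± 0.07, adjusted p = 0.018) and Rbl2, the RB relative p130, rose by 0.52 ± 0.05. The Ccnd1 groups overlapped, with animal 1 high in both. Ccnd1 and Rbl2 missed the threshold without animal 2 (adjusted p = 0.0866 and 0.0765), without animal 3 (0.13 and 0.142) and without the animal term (0.666 and 0.181), and Ccnd1 also in the fit of all 12 libraries (0.279). None of 15 damage sensing and checkpoint genes, 12 end joining genes or 30 ribosomal protein genes was called by edgeR, DESeq2 or limma-voom, and 0 of them had an unadjusted p under 0.05 in edgeR. Without animal 1, 6 of the 15 checkpoint genes were called lower (background 9.72%).

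Summed levels of some marker lists of other cells were highest in animal 1. Without irradiation its library held summed levels of 3744 CPM for the macrophage and dendritic list, against 1406 and 1521 CPM in animals 2 and 3. The mast cell and basophil list summed to 796 CPM against 224 and 280 CPM. After irradiation the macrophage and dendritic sums were 3305, 2158 and 2319 CPM, lower than before in animal 1 and higher in the other animals. Of the 13 members of that list edgeR called 1 lower (Siglech), and DESeq2 called 5 higher and 1 lower (531 and 356 of all 14197 tested genes). Of the 11 mast cell genes edgeR and DESeq2 called 0, with 2 upward at an unadjusted p under 0.05 in edgeR. Without animal 1, edgeR called 12 of the 13 and 8 of the 11 higher, against 13.6% of all tested genes. Pecam1, an endothelial marker that LSK cells also express, rose by 0.41 ± 0.05, while Col3a1, Cxcl12 and Pdgfra, of stromal cells, were too low to be tested. Other genes of that stroma and endothelium list were detected. Of its 13 genes 8 were tested, with Col1a2, Lepr, Pdgfrb and Acta2 among them, and 4 were upward in all 3 animals (background 19%). Nkg7, of cytotoxic lymphocyte and myeloid granules, rose by 0.58 ± 0.07, with Cd3e too low to be tested. Pecam1 and Nkg7 missed the threshold without animal 2 (0.0954 and 0.117), without animal 3 (0.262 and 0.152) and without the animal term (0.102 and 0.155). The part of these cells in the changes was not tested. Animal 1 also has its own range of library numbers, so animal and number range cannot be told apart.

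**Figure D5:**
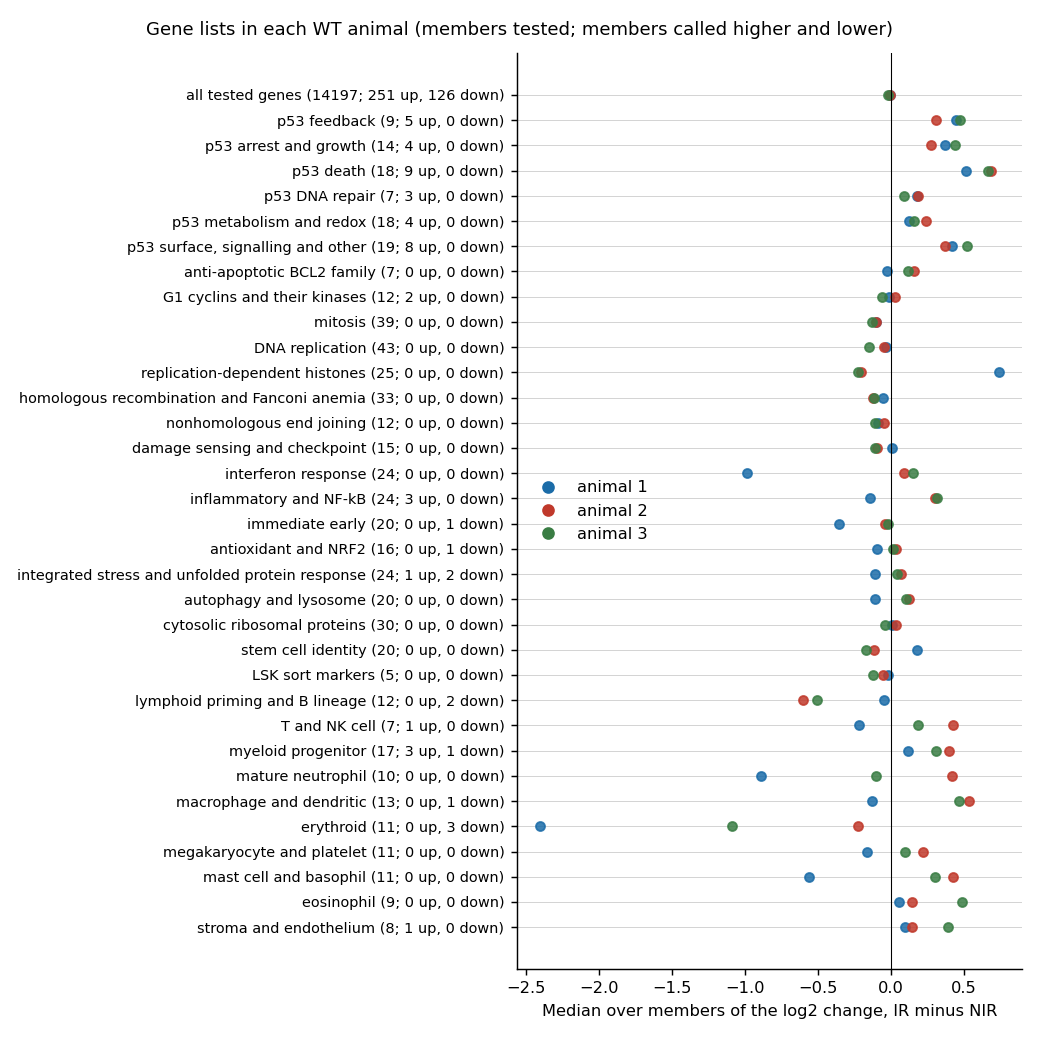
Median log2 change of IR over NIR over the members of each gene list, with 1 point per WT animal and, in parentheses, the members tested and those called up and down. The 6 p53 lists lie above 0 in all 3 animals, and the erythroid list lies below 0 in all 3. The interferon, mast cell, and macrophage and dendritic lists are among those below 0 in animal 1 alone. The list labelled LSK sort markers also holds Ptprc, Cd34 and Flt3, which are not part of the sort.

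The last comparison asked where the response of WT cells differed from that of CM cells. The p53 targets also moved upward in CM cells: of the 33 called in WT, 31 were upward in all 3 CM animals, against 11.4% of all genes. All 33 had a smaller log2 fold change in CM than in WT, and for 22 the difference had an unadjusted p under 0.05. The 33 were chosen by their rise in WT, which enters that difference, so these counts are a description. Zmat3 changed by 3.47, 3.77 and 3.49 in the WT animals and by 1.6003, 3.49 and 2.09 in the CM animals, and Trp53inp1 by 1.98, 2.11 and 2.18 against 1.06, 1.75 and 1.33. For these genes CM animal 2 was nearest to the WT animals and the others lay below.

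Tested over all 14599 genes of the 12 libraries, 0 differed in response at an adjusted p under 0.05 in edgeR with the animal as a term, and 417 had an unadjusted p under 0.05. The count was also 0 without each of the 6 animals in turn. DESeq2 called 4, namely Cd209a, Cd209e, Fat1 and AF067061, the last outside the naming rule. Cd209a had the smallest p in edgeR. It changed by 2.52, 2.11 and 2.18 in WT and by 0.60, 0.93 and 0.46 in CM, a difference of -1.61 ± 0.16 (SE, adjusted p = 0.408). Cd209e followed, with 2.33, 2.94 and 2.57 against 0.75, 1.27 and 0.98. Of all genes called higher in WT, 184 of 251 were upward in all 3 CM animals, and of those called lower 71 of 126 were downward in all 3, against 11.4% of genes for each direction. Ermap, for example, changed by -0.12, -3.36 and -2.22 in the CM animals, with no fall in CM animal 1 like that of the WT animals.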

How the data were processed

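Sorted LSK cells of 3 WT and 3 CM animals were sequenced with and without irradiation. Per the labels' protocols, libraries were stranded and depleted of ribosomal RNA. Per the submitters' processing notes, bcl2fastq 2.18.0.12, TopHat2 and HTSeq 0.6.1p1 were used with mm10; no source used here states the strand setting or annotation release, so overlapping genes and paralogs are uncertain. The deposited gene counts of the authors were used for every test; the deposited RPKM values of the authors, counts per exon length and library size, served for levels between genes and 1 alternative.

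The 6 WT libraries were fitted with edgeR 4.0.16 (R 4.3.3): animal and IR terms, TMM, filterByExpr (minimum count 10, total 15), quasi-likelihood test, Benjamini-Hochberg over 14197 genes. The common biological coefficient of variation was 0.0949, with 2 residual degrees of freedom. The labels give both libraries of an animal its number, and deviations from the group means correlated at 0.70, 0.55 and 0.45 within animals. No pair of libraries agreed within sampling noise (chi-square per degree of freedom at least 14.5). SE is the log2 fold change over the root of F, and per-animal changes use log2 CPM with a prior count of 2. The difference between genotypes was an interaction in 12 libraries with 6 animal terms. DESeq2 1.42.0 and limma 3.58.1 were alternatives, and scripts were tested on simulated data.

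The comparison and all gene lists were chosen with earlier results of these data known. Named genes were 12 set ones, the 10 largest and the 10 of smallest p per direction with the same sign in all animals and at least 1 CPM, up to 5 members per list by smallest p, all p53 list members, and the 3 smallest p of the genotype difference. Promoters are from RefSeq (GRCm38.p6); the full site was defined after seeing the data.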

Additional observations from a re-analysis of the deposited data

Results flagged for a closer look

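Ly6d, a surface protein of lymphoid progenitors, moved in opposite directions in the 2 genotypes in every animal. In WT it went from 0.997, 0.831 and 1.26 CPM without to 0.240, 0.238 and 0.315 CPM with irradiation, a log2 difference of -1.95 ± 0.21 (SE, adjusted p = 0.0142 in edgeR). In the CM animals its log2 changes were 0.21, 0.57 and 1.36. The response of CM minus WT was 2.79 ± 0.40 (SE), and the test of the difference did not pass after adjustment over all genes (edgeR, adjusted p = 0.99995). Its level was near 1 CPM or below in all of these libraries. In WT the call was lost without animal 2 (adjusted p = 0.0779) and without animal 3 (0.189).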

How the results depend on the processing

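Leaving the replicate block, the animal term, out of the fit of the 6 WT libraries gave 86 genes higher and 6 lower in place of 251 and 126, all of them among the 251 and 126. All 12 libraries with the block gave 137 and 26, and without the block 17 and 0 (371 and 220 at an unadjusted p under 0.05). DESeq2 with the block called 531 higher and 356 lower, a mean of at least 5 CPM left 137 and 53, and limma on log2(RPKM + 0.1) gave 69 lower. With 1 animal left out the counts ran from 29 to 1935 higher and from 8 to 1380 lower, the cause was not tested, and such fits have few residual degrees of freedom. For the genotype difference edgeR called 0 with and without the block and without any 1 animal, and DESeq2 called 4. Under limma-voom, RLE, no TMM or no filter the counts stayed within 1.5 times. Of 102 named genes past the threshold, 22 passed under all 8 settings run per gene, 21 higher and, lower, Scd1, and none changed sign while called. At these depths genes under 1 CPM are the least precise.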

Other observations

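Genes that respond to low oxygen through HIF were lower in irradiated WT cells. This list of 40 genes, and the 2 that follow, were written after the leading genes had been seen, so their counts describe these libraries and are no test. Of the 40, 17 were called lower and 0 higher in edgeR, against 0.888% of all tested genes called lower. Downward in all 3 animals were 36, against 22.9% of all tested genes. The median log2 change was -0.44, -0.25 and -0.32 in animals 1, 2 and 3. P4ha2, a collagen prolyl hydroxylase, went from 13.3, 13.6 and 10.1 CPM to 5.50, 6.60 and 4.46 CPM (-1.16 ± 0.09 SE, adjusted p = 0.00608 in edgeR). Bnip3, a mitophagy receptor, went from 161, 152 and 139 CPM to 91.5, 104 and 84.9 CPM (-0.69 ± 0.06, adjusted p = 0.00859). Vegfa (-0.37 ± 0.05), the prolyl hydroxylase gene Egln3 (-0.46 ± 0.06) and the glucose transporter gene Slc2a1 (-0.50 ± 0.07) were called too, whereas the glycolytic genes Ldha (-0.20 ± 0.08) and Pkm (-0.13 ± 0.08) were not. In the CM animals the list's median was -0.02, -0.32 and -0.34. Without the animal term 2 of the 40 were called, without animal 1 32 (background 9.72%), without animal 2 5 and without animal 3 1.

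Of 28 genes of fatty acid and sterol synthesis, 7 were called lower (background 0.888%) and 21 were downward in all 3 animals (background 22.9%). They were the desaturase genes Scd1, Scd2 (-0.34 ± 0.05), Fads1 (-0.28 ± 0.04) and Fads2 (-0.35 ± 0.04), the acetyl-CoA synthetase gene Acss2 (-0.67 ± 0.07) and the sterol synthesis genes Lss (-0.37 ± 0.05) and Cyp51 (-0.26 ± 0.04). Without the animal term 1 of the 28 was called, without animal 1 18 (background 9.72%), without animal 2 1 and without animal 3 1. Fasn, fatty acid synthase, stood at 737, 655 and 723 CPM without and at 918, 691 and 722 CPM with irradiation and was not called (adjusted p = 0.427).

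Among 17 tested genes of the red cell membrane, 7 were called lower, against 0.888% of all tested genes. The count was 0 without the animal term, 9 without animal 1 (background 9.72%), 8 without animal 2 and 1 without animal 3. Beside Ermap, Rhd and Rhag the 7 included Kel (-3.06 ± 0.28), Ank1 (-2.58 ± 0.24) and Add2 (-2.89 ± 0.30). Those 3 encode a blood group antigen and parts of the membrane skeleton. Kel, Ank1 and Add2 missed the threshold without animal 3 (adjusted p = 0.131, 0.131 and 0.139 in edgeR) and without the animal term (0.431, 0.458 and 0.458). Epb41, which many cells use, stood at 247, 247 and 249.3 CPM without and at 240, 250 and 238 CPM with irradiation.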
